A study of Mus musculus with 68 samples.

Results

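Sox10, Foxd3, Ngfr, Erbb3, Ets1 and Sox8 are genes of neural crest cells on their way from the neural tube to the pharyngeal arches, and of the glial precursors that arise from them. They were followed here through RNA sequencing of pharyngeal arch 1 (PA1) and pharyngeal arch 2 (PA2) of mouse embryos. The 6 genes were taken by symbol from a table of 21948 genes, and 5 of them passed the filter on low values and were tested. Foxd3 did not pass it and is described without a test.

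Both arches fill with neural crest, and PA1 builds the jaws while PA2, the arch that expresses Hoxa2, builds the stapes and part of the hyoid. Embryos were wildtype or labelled Hoxa2-/-, all of a CBA/Ca/J x C57BL/10 background with no further treatment named, and were taken at E9.0, at E9.5, at E10.0 or at E10.5, where E gives the embryonic day. PA1 and PA2 came from the same embryo for 33 of the 35 embryos, which gave 68 libraries in 16 groups. By stage, in that order, the wildtype groups number 5, 5, 5 and 3 libraries for PA1 and 4, 4, 5 and 3 for PA2. Those labelled Hoxa2-/- number 4, 5, 5 and 3 for each arch. The sources used here do not give how the Hoxa2 allele was made.

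Cranial neural crest leaves the hindbrain and midbrain in streams, and the stream from the level of rhombomere 4 fills PA2. Sox10 and Foxd3 are transcription factors that mark the migrating cells, and Sox10 is later kept in glia while cells that become skeletal mesenchyme lose it. Erbb3 is a receptor for neuregulins that glial precursors need, and Ngfr is the p75 neurotrophin receptor. Ets1 is a transcription factor of cranial crest that endothelial cells also express, and Sox8 belongs with Sox9 and Sox10 to the SoxE family.

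Sequencing depth ran from 8912251 to 20619153 reads per library, with a median of 14947498. The deposited values are read counts relative to library size and scaled between libraries, here called CPM, and 3 reads correspond to 0.14 to 0.328 CPM. Hoxa2 checked the arch labels: it reached at most 0.926 CPM in the PA1 libraries and was at least 16.8 CPM in the PA2 libraries. The PA2 libraries labelled Hoxa2-/- showed no loss of it, with a mean of 97.7 ± 13.3 CPM (SD, n = 5) at E10.0 against 47.5 ± 4.49 CPM (SD, n = 5) in wildtype, so a gene total does not check that label. The 24 libraries from wildtype embryos at stages other than E10.0 differed from the other 44 in genes such as Ski, at 26.3 to 108 CPM against 9.28 to 22.8 CPM. At the other 3 stages (E9.0, E9.5, E10.5) the label and this division of the libraries cannot be told apart, while comparisons between arches, and between those 3 stages within a label, lie within 1 side of it. Of PA2, 4 libraries stood apart by genes of other tissues. Wildtype embryo 2 at E9.0 held 63600 CPM of red cell genes, and wildtype embryo 3 at E10.0, Hoxa2-/- labelled embryo 3 at E9.0 and embryo 4 at E10.0 held between 86.5 and 217 CPM of yolk sac genes. A library of PA2 labelled Hoxa2-/- at E9.5, from embryo 4, had 102 CPM of Hoxa2, while the other 4 of its group had 48.6 to 53.5 CPM. Of PA1, the library of Hoxa2-/- labelled embryo 3 at E9.5 stood apart from its group, with 386 CPM of glial list genes (the others 60.0 to 120), 365 CPM of it Pmp22, and 1170 CPM of surface epithelium genes (the others 484 to 712). No member call ended without it. The wildtype PA1 group at E9.5 was uneven, by a chi-square of read counts per degree of freedom between libraries. It was 7.4 between embryos 1 and 3 and 9.1 between embryos 2 and 5, but 24.9 to 36.6 across these pairs. Embryos 1 and 3 had the lowest Ets1 of that group (45.0 and 56.9 CPM), but embryo 3 was not low in Erbb3 (11.5 and 20.3 CPM). Nothing states which separate litters the embryos came from, so p-values measure the spread between these embryos.

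The gene models are those of GENCODE M21, whose coordinates are on mm10, the build named in the submitters' processing notes. Sox10 (ENSMUSG00000033006) lies on the minus strand at chr15:79154908-79165240, Sox8 (ENSMUSG00000024176) on the minus strand at chr17:25565892-25570686, and Foxd3 (ENSMUSG00000067261) on the plus strand at chr4:99656299-99658622. Ets1 (ENSMUSG00000032035) lies on the plus strand at chr9:32636221-32757820, Erbb3 (ENSMUSG00000018166) on the minus strand at chr10:128567523-128589652, and Ngfr (ENSMUSG00000000120) on the minus strand at chr11:95568818-95587735. Each is annotated as a protein-coding gene.

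Sox10 and Sox8 share the DNA-binding HMG box with Sox9, which stood at group means of 40.6 to 122 CPM in the arches, so a stretch of 240 coding bases over that box is shown for how far reads can tell the 3 genes apart. It spans exons 3 and 4 of Sox10 (chr15:79159298-79163422, coding bases 295 to 534), exons 1 and 2 of Sox8 (chr17:25568955-25570243, coding bases 280 to 519) and exons 1 and 2 of Sox9 (chr11:112782882-112783914, coding bases 298 to 537). Each sequence runs 5′ to 3′ on the coding strand, and capitals mark the 53 positions at which the bases are not the same in all 3 genes.
Sox10: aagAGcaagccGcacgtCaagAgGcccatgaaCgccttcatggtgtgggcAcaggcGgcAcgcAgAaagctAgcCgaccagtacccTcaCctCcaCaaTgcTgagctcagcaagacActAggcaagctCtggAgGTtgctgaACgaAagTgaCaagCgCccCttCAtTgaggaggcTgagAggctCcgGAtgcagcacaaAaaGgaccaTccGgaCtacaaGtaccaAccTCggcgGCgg
Sox8: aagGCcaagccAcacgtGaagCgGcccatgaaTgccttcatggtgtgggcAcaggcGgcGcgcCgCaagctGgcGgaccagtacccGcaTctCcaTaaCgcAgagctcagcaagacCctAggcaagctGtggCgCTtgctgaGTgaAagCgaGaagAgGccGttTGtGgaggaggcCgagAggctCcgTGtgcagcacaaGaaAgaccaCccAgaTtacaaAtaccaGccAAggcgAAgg
Sox9: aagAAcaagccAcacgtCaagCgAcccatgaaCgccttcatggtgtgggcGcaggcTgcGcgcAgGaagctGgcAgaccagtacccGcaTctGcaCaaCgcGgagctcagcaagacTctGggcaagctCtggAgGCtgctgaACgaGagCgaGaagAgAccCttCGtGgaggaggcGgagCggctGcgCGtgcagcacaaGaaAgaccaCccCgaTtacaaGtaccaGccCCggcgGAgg
The other 187 positions were the same in all 3. Sox10 matched Sox8 at 196 of the 240 bases (81.7%) and Sox9 at 202 (84.2%), and Sox8 matched Sox9 at 206 (85.8%). The longest run of bases shared anywhere in the 3 transcripts was 44 between Sox10 and Sox9, 26 between Sox10 and Sox8 and 23 between Sox8 and Sox9. Read length and the handling of reads with several matches are not given in the sources used here, so how reads from this stretch were assigned is not known.

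Levels differed widely among the 6 genes. Per kilobase of exon, the mean level in wildtype PA1 at E9.0 was 13.7 CPM for Ets1, 7.45 for Sox10, 5.24 for Erbb3, 2.88 for Sox8, 0.616 for Ngfr and 0.093 for Foxd3. By E10.5 in the same arch the order was Ets1 at 5.19, Erbb3 at 2.53, Sox8 at 0.955, Ngfr at 0.661, Sox10 at 0.196 and Foxd3 at 0.0379 CPM per kilobase. Sox10 thus stood in the second place of the per-length order at E9.0 and the fifth at E10.5, as group means with no test between genes.

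**Figure D1:**
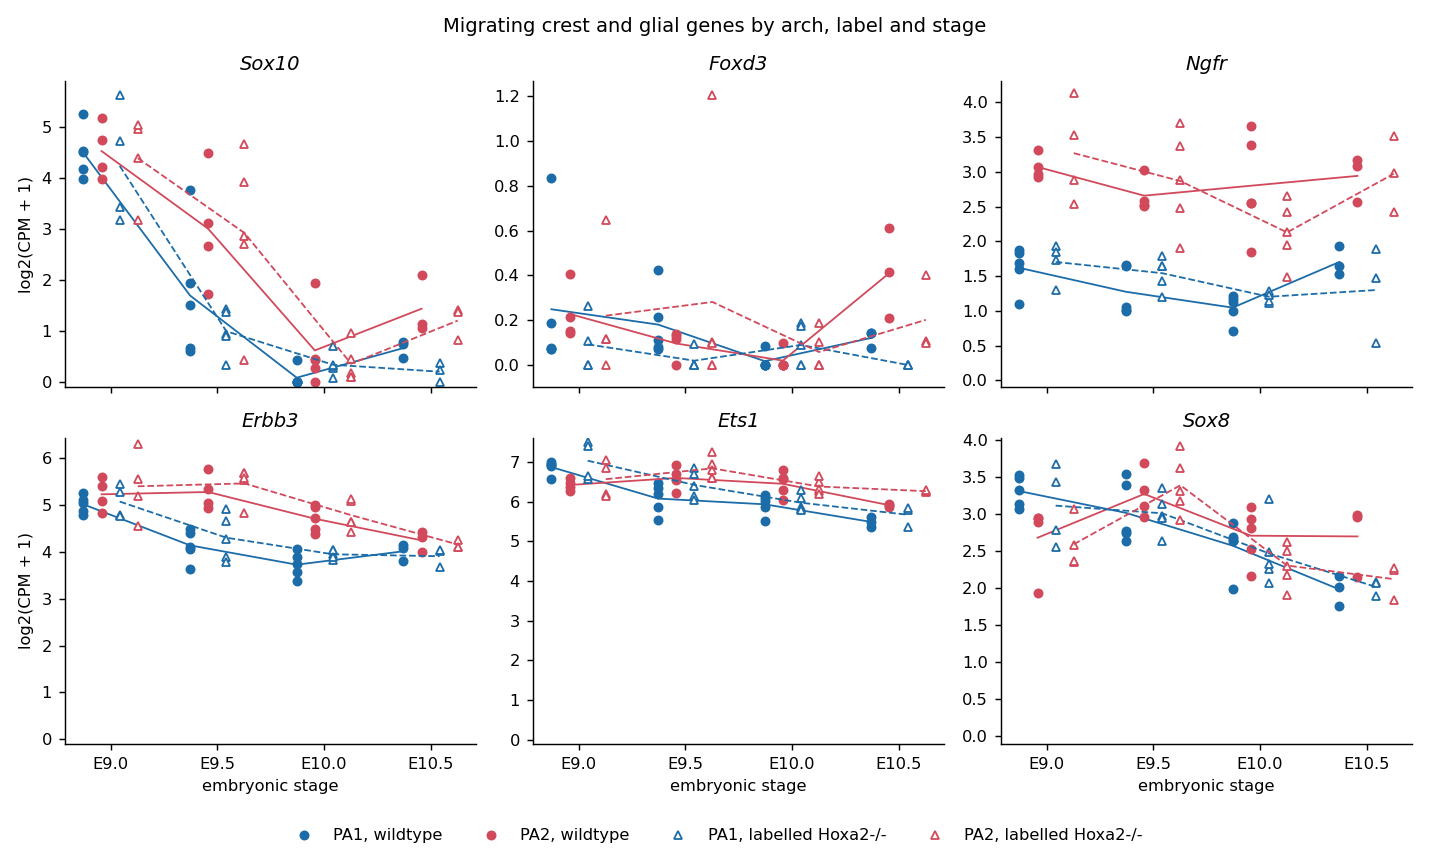
Levels of the 6 genes as log2(CPM + 1) in each library (points) against embryonic stage, with lines through the group means, for PA1 (blue) and PA2 (red) of wildtype embryos (filled circles, solid lines) and embryos labelled Hoxa2-/- (open triangles, dashed lines). Vertical scales differ between genes. Sox10 goes from 8.03 to 48.3 CPM at E9.0 to at most 3.32 CPM at E10.0 and E10.5, and Ngfr is higher in PA2 than in PA1 throughout.

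Sox10 was at its highest at E9.0, where it did not separate the arches. It stood at 17.1, 22.0, 22.1, 14.8 and 37.6 CPM in the 5 wildtype PA1 libraries and at 17.7, 25.8, 14.8 and 35.2 CPM in the 4 wildtype PA2 libraries. Under the Hoxa2-/- label the E9.0 values were 48.3, 9.80, 25.6 and 8.07 CPM in PA1 and 30.3, 20.0, 31.8 and 8.03 CPM in PA2. All 4 groups overlapped, with means between 22.5 and 23.4 CPM.

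By E9.5, Sox10 in wildtype PA1 was 0.520, 2.85, 12.7, 1.84 and 0.582 CPM, and in wildtype PA2 it was 5.37, 7.69, 21.7 and 2.33 CPM. In embryos labelled Hoxa2-/- it was 1.72, 1.58, 0.916, 0.261 and 0.883 CPM in PA1 and 24.5, 6.29, 14.3, 0.359 and 5.56 CPM in PA2. No PA1 library of E9.5 reached the lowest PA1 level of E9.0 except that of wildtype embryo 3, while the PA2 libraries of E9.0 and E9.5 overlapped. In the 16 PA1 libraries of E10.0 and E10.5 Sox10 lay between 0 and 0.729 CPM, with a median of 0.223 CPM, and in the 16 PA2 libraries between 0 and 3.32 CPM, with a median of 0.576 CPM.

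The decline of Sox10 was large in PA1 between E9.0 and E9.5. On the log2(CPM + 1) scale, which understates changes of low genes, it fell by 2.80 ± 0.49 (SE) in wildtype PA1 (adjusted p = 0.00047) and by 3.24 ± 0.52 in PA1 labelled Hoxa2-/- (adjusted p = 7.9e-05). In wildtype PA2 the log2 difference was -1.52 ± 0.55 and did not pass (adjusted p = 0.074). In PA2 labelled Hoxa2-/- it was -1.47 ± 0.52 and passed (adjusted p = 0.042), but not in edgeR (adjusted p = 0.21) and not when any 1 of 6 of the 9 libraries was left out. Without the library high in yolk sac genes it was -1.25 (adjusted p = 0.2, and 0.19 without all 4 libraries high in yolk sac or red cell genes). Without the E9.5 library of embryo 4 it was -0.85 (adjusted p = 0.27). From E9.5 to E10.5 Sox10 fell in PA2, by 1.57 in wildtype (adjusted p = 0.034) and 1.72 under the label (adjusted p = 0.03), calls that ended when any 1 of 4 (of 7) and of 5 (of 8) libraries was left out, with adjusted p of up to 0.19 and 0.14. Between E9.0 and E10.5 Sox10 fell in all 4 series of arch and label, with log2 differences of -3.83 and -4.04 in PA1 (wildtype, then labelled Hoxa2-/-) and -3.09 and -3.18 in PA2, with a highest adjusted p of 2.9e-05. In bulk tissue, fewer Sox10-expressing cells and less Sox10 RNA in each cell cannot be told apart.

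Foxd3, a forkhead factor of early crest, lay near the limit of detection in these dissections at each stage. It had 123 reads in all, none in 26 libraries and at most 3 in 60 of the 68. Its highest values were 1.31 CPM (19 reads) in PA2 of Hoxa2-/- labelled embryo 1 at E9.5 and 0.785 CPM (16 reads) in PA1 of wildtype embryo 5 at E9.0. Those were also the libraries with the highest Sox10 in their groups, at 24.5 and 37.6 CPM. At E10.5 Foxd3 was higher in PA2 in 3 of 3 embryos under each label, with 3, 10 and 6 reads against 1, 2 and 2 in wildtype and 1, 4 and 1 against 0, 0 and 0 under the label. Over all stages it was higher in PA2 in 19 of 33 embryos, but some of the others were ties with 0 reads in both arches. In Hoxa2-/- labelled embryo 5 at E9.5, counted as higher, it had 1 read in each arch. These counts were too low for a test.

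Erbb3 values of the arches overlapped at E9.0 and, in wildtype, no longer did at E9.5. In PA1 it went from 32.1, 33.5, 28.4, 26.6 and 37.0 CPM at E9.0 to 11.5, 21.4, 20.3, 16.1 and 15.6 CPM at E9.5 in wildtype. In wildtype PA2 it was 47.7, 27.3, 32.8 and 41.6 CPM at E9.0 and 32.2, 29.7, 53.7 and 39.8 CPM at E9.5. The PA1 groups did not overlap and the PA2 groups did. From E9.0 to E9.5 Erbb3 fell in PA1 by 0.88 ± 0.21 in wildtype (adjusted p = 0.0082) and by 0.77 ± 0.22 under the Hoxa2-/- label (adjusted p = 0.037), while the PA2 differences were 0.05 ± 0.23 and 0.06 ± 0.22 (adjusted p = 0.92 and 0.88). The wildtype PA1 call ended without the E9.5 library of embryo 1 (-0.75, adjusted p = 0.06), and the call under the Hoxa2-/- label ended when any of 5 libraries was left out, with an adjusted p of up to 0.22. Between E9.5 and E10.5 the order was the other way round: Erbb3 fell in PA2, by 1.03 ± 0.25 in wildtype (adjusted p = 0.00096) and by 1.3 ± 0.24 under the Hoxa2-/- label (adjusted p = 7.4e-05), and the PA1 differences of -0.13 and -0.40 did not pass.

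Ets1 followed a similar course at higher levels. Wildtype PA1 held 118, 121, 122, 93.7 and 127 CPM at E9.0 and 45.0, 87.6, 56.9, 80.2 and 71.7 CPM at E9.5, without overlap. Wildtype PA2 held 95, 75.5, 81.4 and 87.1 CPM at E9.0 and 73.1, 93.0, 120 and 103 CPM at E9.5, with overlap. Ets1 fell by 0.79 ± 0.18 in wildtype PA1 over that interval (adjusted p = 0.004). In PA1 labelled Hoxa2-/- the difference was -0.61 ± 0.19 (adjusted p = 0.057, and 0.048 with the correlation between arches of an embryo modelled). The PA2 differences were 0.18 ± 0.20 in wildtype and 0.27 ± 0.19 under the Hoxa2-/- label, and neither passed. From E9.5 to E10.5 Ets1 fell by 0.57 to 0.75 in all 4 series of arch and label. The wildtype PA1 call ended without the E9.5 library of embryo 2 or the E10.5 library of embryo 1 (adjusted p = 0.055 and 0.076), and that in PA1 labelled Hoxa2-/- without the E10.5 library of embryo 1 (adjusted p = 0.096). The call in PA2 labelled Hoxa2-/- (adjusted p = 0.046) ended when any 1 of 5 of its 8 libraries was left out, with an adjusted p of up to 0.14. By E10.5 Ets1 was down from E9.0 in PA1 by 1.38 ± 0.20 and 1.36 ± 0.21 (adjusted p = 1.2e-07 and 1e-06). In PA2 the same span gave -0.51 ± 0.21 in wildtype (adjusted p = 0.052, and 0.044 with the embryo modelled) and -0.30 ± 0.21 under the label (adjusted p = 0.29).

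Endothelial genes also changed over time. The summed level of 10 endothelial markers ran from 322 to 390 CPM in wildtype PA1 at E9.0 and from 176 to 203 CPM at E10.5, and in wildtype PA2 from 274 to 395 CPM and from 192 to 210 CPM. None of the 10 was at 0 in any group. Of these genes, 8 were lower and 1 was higher at E10.5 than at E9.0 in wildtype PA1, and 6 were lower in wildtype PA2, where 42.5% and 36.9% of all genes passed. Between E9.0 and E9.5 in wildtype PA1 none of the 10 passed, although Ets1 did. The part of endothelial cells in the Ets1 values was not tested.

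Sox8 ran from 2.39 to 14.1 CPM over the 68 libraries. Wildtype PA1 held 10.6, 10.2, 8.97, 7.38 and 7.80 CPM at E9.0 and 3.48, 3.06 and 2.39 CPM at E10.5, a fall of 1.32 ± 0.26 on the log2 scale (adjusted p = 2.5e-05). The fall in PA1 labelled Hoxa2-/- was 1.09 ± 0.27 (adjusted p = 0.0011). PA2 labelled Hoxa2-/- rose from 4.09, 7.39, 4.16 and 4.98 CPM at E9.0 to 11.3, 8.91, 14.1, 6.54 and 7.99 CPM at E9.5, by 0.79 ± 0.23 (adjusted p = 0.015). The adjusted p was 0.086 without the library high in yolk sac genes, and 0.056 without the E9.5 library of embryo 3. It was 0.079 without all 4 libraries high in yolk sac or red cell genes. In wildtype PA2 the same step gave 0.59 ± 0.25 and did not pass (adjusted p = 0.13), although the 4 libraries of each stage did not overlap. Thereafter Sox8 fell between E9.5 and E10.5 in PA1 under both labels and in PA2 under the Hoxa2-/- label, by 1.03, 0.99 and 1.27, and the wildtype PA2 difference of -0.57 did not pass (adjusted p = 0.091).

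For Ngfr none of the 12 differences between E9.0, E9.5 and E10.5 passed in limma, at log2 values from -0.41 to 0.43, and the smallest unadjusted p of these was 0.17. E10.0 was not part of those spans, and the mean of Ngfr was lowest there in 3 of the 4 series of arch and label. In PA2 labelled Hoxa2-/- it went from 4.80 to 16.5 CPM (median 8.45) at E9.0 to 4.35, 5.29, 1.81, 3.38 and 2.85 CPM at E10.0 and stood at 10.4, 6.88 and 4.35 CPM at E10.5. In PA1 under that label the E9.0 values (1.46 to 2.82 CPM) and the E10.0 values (1.17 to 1.44 CPM) did not overlap. These steps were not tested.

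Counted by step, the change from E9.0 to E9.5 passed as a decrease for 3 of the 5 tested members in wildtype PA1, where 6.73% of the 18428 tested genes passed in either direction, and for 2 in PA1 labelled Hoxa2-/-, where 2.85% passed. In wildtype PA2 no member passed in limma (2 at an unadjusted p under 0.05, 0 in edgeR) against 6.68% of genes. In PA2 labelled Hoxa2-/- Sox10 passed as a decrease and Sox8 as an increase, against 16.9%. From E9.5 to E10.5, 2 and 3 members fell in wildtype PA1 and PA2, against 40.9% and 34.3% of genes, and 2 and 4 fell under the Hoxa2-/- label, against 17.5% and 14.5%. From E9.0 to E10.5, 4 and 2 fell in wildtype PA1 and PA2 (background 42.5% and 36.9%), and 4 and 2 under the Hoxa2-/- label (31.2% and 30.9%). The median log2 difference of the 5 members in wildtype PA1 over the whole span was -1.32 and that of the tested genes 0. These spans share libraries with each other.

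**Figure D2:**
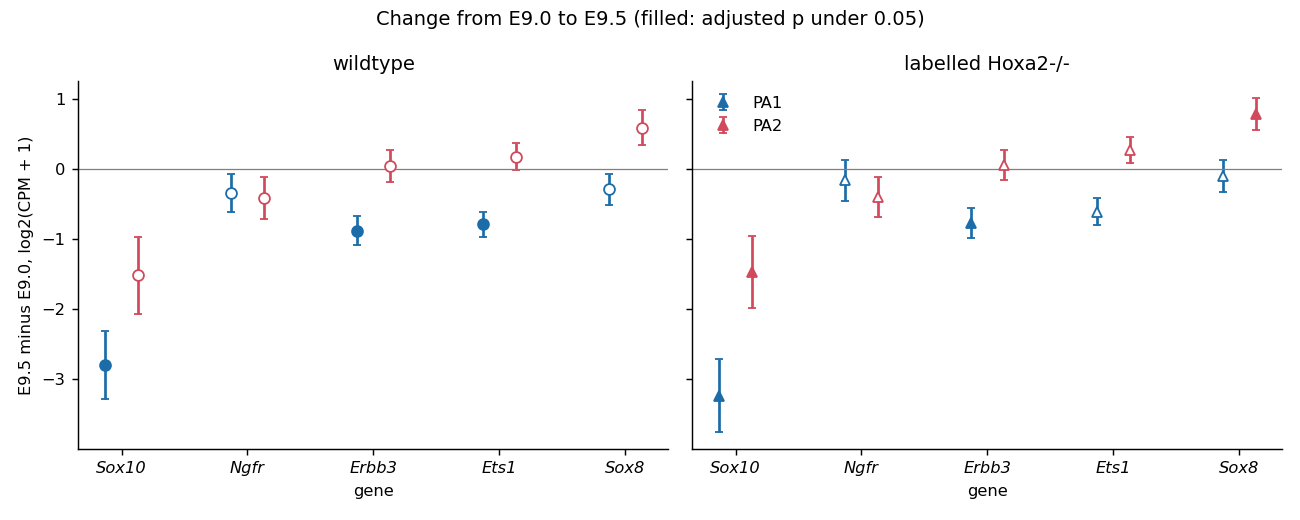
Change from E9.0 to E9.5 on the log2(CPM + 1) scale, with bars of 1 SE, for the 5 tested genes in PA1 (blue) and PA2 (red), in wildtype embryos (left) and embryos labelled Hoxa2-/- (right); filled symbols have an adjusted p under 0.05. For Sox10, Erbb3, Ets1 and Sox8 the PA1 value lies below the PA2 value under both labels, with wildtype Erbb3 at -0.88 against 0.05, and for Ngfr it does not.

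Whether the step from E9.0 to E9.5 differed between the arches was tested directly, after the pattern had been seen. In wildtype embryos the PA2 change exceeded the PA1 change by 0.97 ± 0.26 for Ets1 (adjusted p = 0.019) and by 0.93 ± 0.31 for Erbb3 (adjusted p = 0.046), and these 2 of 5 members compare with 10.3% of tested genes. The Ets1 call ended when any 1 of 4 wildtype E9.5 libraries was left out, those of embryos 1 and 3 in PA1 and 3 and 5 in PA2 (0.83 to 0.94, highest adjusted p = 0.058). The Erbb3 call ended when any 1 of 12 of the 18 libraries was left out (adjusted p of up to 0.13). The Erbb3 difference was 0.79 without the library high in red cell genes (adjusted p = 0.12). Its adjusted p was 0.075 without all 4 libraries high in yolk sac or red cell genes. Sox8 at 0.88 ± 0.33 and Sox10 at 1.27 ± 0.73 did not pass (adjusted p = 0.07 and 0.25). Under the Hoxa2-/- label the differences were 0.88 for Ets1, 0.83 for Erbb3, 0.90 for Sox8 and 1.78 for Sox10. None of these passed in limma (4 at an unadjusted p under 0.05, 0 in edgeR), where 1.01% of genes did. With the embryo as a block, since both arches came from it, 6 of the 10 tests passed: Ets1, Erbb3 and Sox8 in wildtype (adjusted p = 0.004, 0.018 and 0.0085) and Ets1, Sox8 and Sox10 under the Hoxa2-/- label (adjusted p = 0.012, 0.021 and 0.024). How many of all tested genes passed with the block was not taken.

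The comparison of PA2 with PA1 within a label and stage asks whether the crest genes separate the hyoid arch from the mandibular and maxillary one. Ngfr was higher in PA2 at every stage under both labels. Its values in wildtype PA1 were 2.67, 1.14, 2.05, 2.21 and 2.55 CPM at E9.0, and in wildtype PA2 7.42, 8.93, 6.62 and 6.82 CPM. At E10.5 the wildtype values were 2.12, 1.90 and 2.81 CPM in PA1 and 4.91, 7.48 and 8.04 CPM in PA2. Over all stages and labels the 35 PA1 libraries ran from 0.454 to 2.82 CPM and the 33 PA2 libraries from 1.81 to 16.5 CPM, and within none of the 8 pairs of groups did the arches overlap.

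The Ngfr differences on the log2 scale, PA2 minus PA1, were 1.45, 1.38, 1.75 and 1.24 in wildtype, in order of stage, and 1.57, 1.33, 0.93 and 1.67 under the Hoxa2-/- label, with SEs of 0.27 to 0.35. All 8 passed, with adjusted p from 3.1e-06 (wildtype E10.0) to 0.049 (wildtype E10.5). It was higher in PA2 in 33 of 33 embryos. The weakest calls were wildtype E10.5, which ended when any 1 of 5 of the 6 libraries was left out (adjusted p of up to 0.27), E10.0 under the Hoxa2-/- label, which ended for any 1 of 7 of 10 (up to 0.11), and E10.5 under that label, which ended for either of 2 of 6 (up to 0.093). The wildtype E10.5 call also ended with a pseudocount of 0.25 or 5 (adjusted p = 0.068 and 0.066). With the embryo as a block these 3 adjusted p were 0.019, 0.013 and 0.0009.

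Erbb3 passed as higher in PA2 at the middle stages, E9.5 and E10.0, under both labels. At E9.5 its log2 difference was 1.14 ± 0.22 in wildtype (adjusted p = 0.00013) and 1.16 ± 0.21 under the Hoxa2-/- label (adjusted p = 5.3e-05). At E10.0 wildtype PA1 held 10.8, 9.42, 13.8, 12.4 and 15.6 CPM and PA2 19.9, 29.9, 21.4, 25.4 and 30.9 CPM, without overlap, a difference of 0.98 ± 0.21 (adjusted p = 0.00081). Under the Hoxa2-/- label the E10.0 difference was 0.84 ± 0.21 (adjusted p = 0.0083). The differences at E9.0 (0.21 and 0.33) and E10.5 (0.23 and 0.25) did not pass. Without all 4 libraries high in yolk sac or red cell genes, the E9.0 difference under the Hoxa2-/- label was 0.61 and passed (adjusted p = 0.048). Embryo by embryo, Erbb3 was higher in PA2 in 31 of 33, at E10.5 in 3 of 3 under each label by 0.07 to 0.44. Both exceptions were at E9.0, in wildtype embryo 2 and Hoxa2-/- labelled embryo 3. Their PA2 libraries were the ones high in red cell and in yolk sac genes at that stage.

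At E9.5 Sox10 was higher in PA2 within each embryo, while the groups of the arches overlapped under both labels. Embryo by embryo it was higher in PA2 in 4 of 4 wildtype embryos, with 5.37 against 0.520 CPM in embryo 1, 7.69 against 2.85 in embryo 2, 21.7 against 12.7 in embryo 3 and 2.33 against 0.582 in embryo 5. Under the Hoxa2-/- label it was higher in 5 of 5, with log2 differences within an embryo from 0.11 to 3.23. The smallest, in embryo 4, came from 5 reads in PA2 against 4 in PA1. At E9.0 it was higher in PA2 in 2 of 4 embryos under either label. The group difference at E9.5 was 1.93 ± 0.49 under the Hoxa2-/- label (adjusted p = 0.0057), and it still passed with any single library left out (highest adjusted p = 0.047), although not when those 2 groups were fitted alone (adjusted p = 0.1). In wildtype it was 1.31 ± 0.52 and missed the threshold (adjusted p = 0.053), while with the embryo as a block it was 1.26 and passed (adjusted p = 0.0054). At E10.5, Sox10 was higher in PA2 in 3 of 3 embryos under each label, at 1.09, 3.32 and 1.22 CPM against 0.381, 0.685 and 0.729 CPM in wildtype, but the differences did not pass (adjusted p = 1.0 and 0.63). The E10.5 groups of the arches did not overlap under either label. With the compared groups fitted alone, the E10.5 difference under the Hoxa2-/- label passed (1.00, adjusted p = 0.04).

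**Figure D3:**
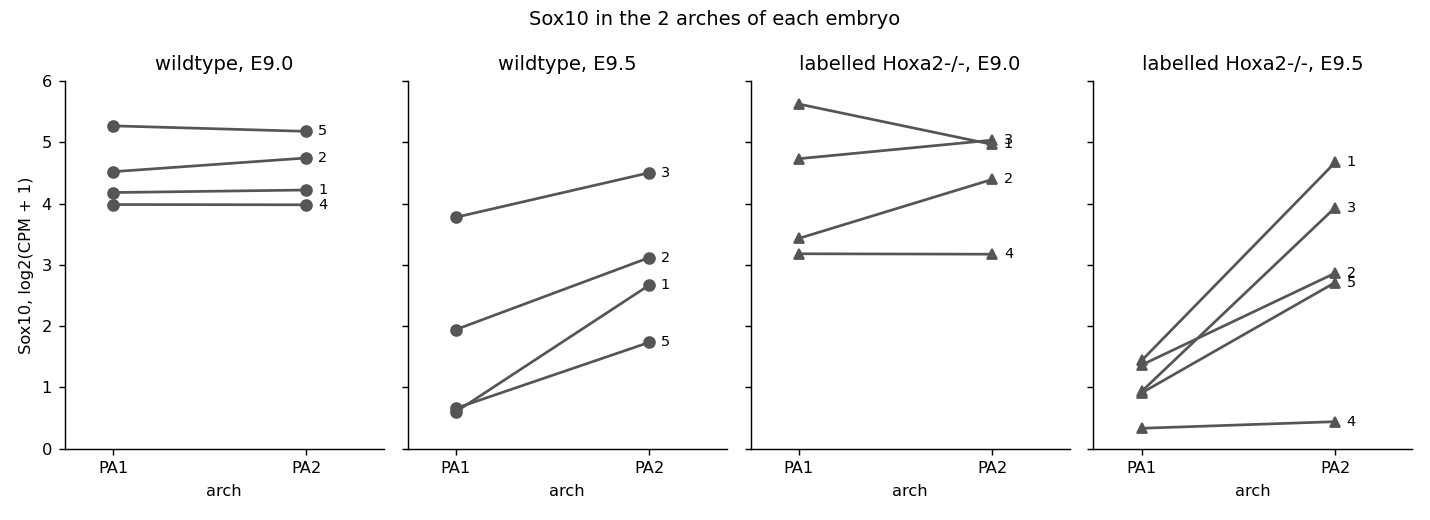
Sox10 as log2(CPM + 1) in PA1 and PA2 of each embryo (joined points, embryo number at the right) at E9.0 and E9.5, for wildtype embryos (circles) and embryos labelled Hoxa2-/- (triangles). At E9.5 each line goes up from PA1 to PA2, 4 of 4 in wildtype and 5 of 5 under the label, and at E9.0 2 of 4 do in each.

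The estimated arch differences of Ets1 and Sox8 were below 0 at E9.0 and above 0 at E9.5. Those of Sox8 passed at neither stage in the fit over all groups. At E9.0 Sox8 was lower in PA2 in 4 of 4 embryos under each label, at 6.70, 6.41, 6.73 and 2.81 CPM in wildtype PA2 against 7.38 to 10.6 CPM in wildtype PA1, without overlap. The log2 difference was -0.63 ± 0.23 in wildtype (adjusted p = 0.051) and -0.52 ± 0.25 under the Hoxa2-/- label (adjusted p = 0.12), and with the embryo as a block both passed (adjusted p = 0.0066 and 0.017). Ets1 at E9.0 was lower in PA2 in 4 of 4 wildtype embryos and 3 of 4 labelled Hoxa2-/-, by -0.45 ± 0.19 and -0.47 ± 0.20 (adjusted p = 0.081 and 0.074, with the block 0.034 and 0.016). From E9.5 on Ets1 was higher in PA2 in 24 of 25 embryos. Its difference passed at E9.5 in wildtype (0.52 ± 0.19, adjusted p = 0.032), a call that ended when any 1 of 4 of the 9 libraries was left out (adjusted p of up to 0.15), and with the block also at E9.5 under the Hoxa2-/- label (0.42, adjusted p = 0.031) and at E10.0 in wildtype (0.52, adjusted p = 0.01). Sox8 from E9.5 on showed no difference that passed, apart from wildtype E10.5 with the block (0.71, adjusted p = 0.039).

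**Figure D4:**
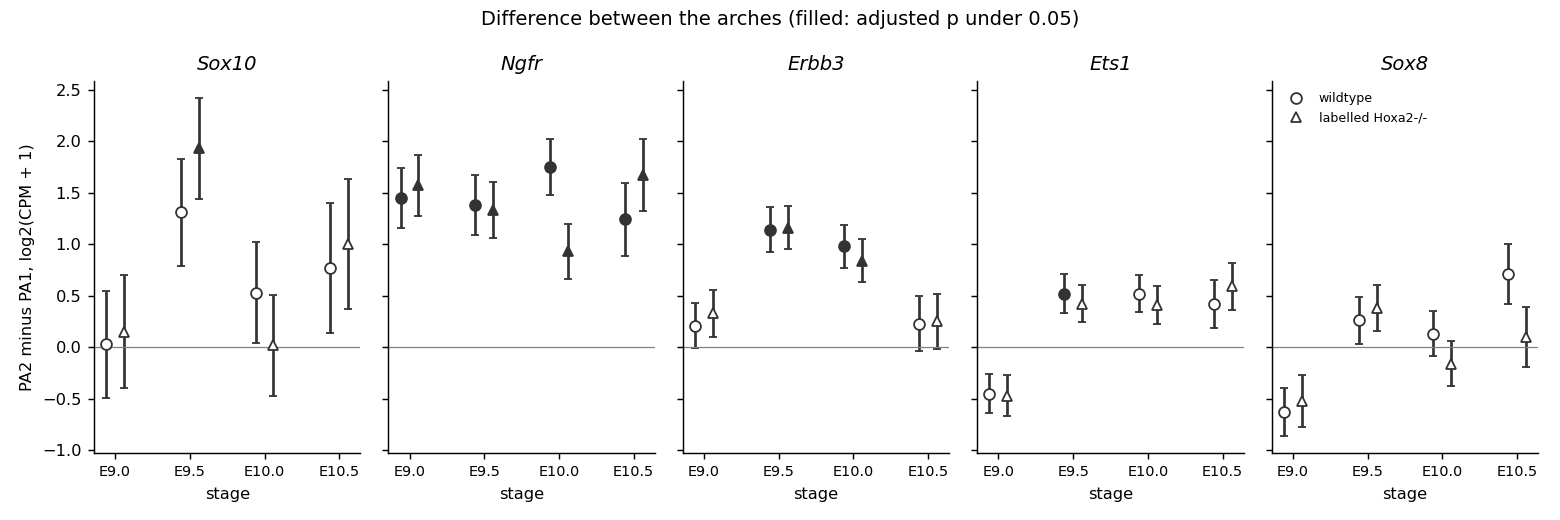
Difference between the arches, PA2 minus PA1 on the log2(CPM + 1) scale with bars of 1 SE, at each stage for the 5 tested genes in wildtype embryos (circles) and embryos labelled Hoxa2-/- (triangles); filled symbols have an adjusted p under 0.05. Ngfr is above 0 and filled at all 8 positions, Erbb3 at E9.5 and E10.0, and Ets1 and Sox8 go from below 0 at E9.0 to above 0 at E9.5.

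In counts, 1, 3, 2 and 1 of the 5 tested members were higher in wildtype PA2 from E9.0 to E10.5 and none was lower, where 18.7%, 26.3%, 5.94% and 1.52% of all tested genes passed in either direction. Under the Hoxa2-/- label the counts were the same, 1, 3, 2 and 1, against 24.6%, 9.58%, 4.23% and 1.37%. With the embryo as a block the number of member tests passed went from 7 to 12 of 20 in wildtype and from 7 to 10 of 20 under the label. The share of all tested genes that passed with the block was not taken, so whether this gain is particular to the members is not known. The medians of the 5 members in wildtype were 0.03, 1.14, 0.53 and 0.71, and those of all tested genes lay between -0.02 and 0.01.

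Markers of other cells differed between the arches as well. The summed level of 13 cranial ganglion neuron genes ran from 31.9 to 59.2 CPM in the PA1 libraries and from 68.7 to 248 CPM in the PA2 libraries, without overlap, and 33 of 88 tests of 11 of these genes passed as higher in PA2 and 1 as lower, where 1.37% to 26.3% of all genes passed in a comparison of arches. At E10.5, 1 of the 11 passed under each label, against 1.52% and 1.37% of all genes. Their median log2 difference there was 0.12 in wildtype and 0.33 under the Hoxa2-/- label. The 3 otic vesicle genes summed to 1.22 to 16.9 CPM in PA1 and 5.68 to 96.2 CPM in PA2, and 4 heart muscle genes to 1.09 to 65.3 CPM and 1.68 to 573 CPM. Of their tests, 10 of 24 and 12 of 32 passed as higher in PA2 and 0 as lower. In wildtype, 3 of the 13 neuron genes were at 0 in PA1 from E10.0 on, and 5 in PA2 at the last stage, and no otic, heart or endothelial gene was at 0 throughout a group. Skeletal muscle progenitor genes passed as higher in PA2 in 23 of 40 tests and as lower in 3. Arch mesenchyme genes passed as lower in PA2 in 18 of 64 tests and as higher in 0. At E9.0, where Sox8 and Ets1 were lower in PA2, the 8 mesenchyme genes summed to 442 to 500 CPM in wildtype PA1 and 199 to 268 CPM in wildtype PA2, and 6 of them passed as lower (5 under the Hoxa2-/- label, at 384 to 476 and 182 to 328 CPM). The endothelial sums overlapped, at 176 to 471 CPM in PA1 and 180 to 552 CPM in PA2. In PA2 labelled Hoxa2-/- at E9.5, the library of embryo 4, with the lowest Sox10 (0.359 CPM), Ngfr (2.73 CPM) and Erbb3 (27.4 CPM) of its group, also had the lowest sums for neurons (68.7 CPM, the others 114 to 181), otic vesicle (13.4 CPM, the others 31.8 to 41.4) and heart muscle (7.83 CPM, the others 27.7 to 375). The mesenchyme sum of this library was the highest of its group (535 CPM, the others 315 to 361). So was its macrophage sum (4.67 CPM, the others 0.758 to 2.22). Its Hoxa2 (102 CPM) lay within the range of PA2 under that label at E10.0 (87.2 to 113 CPM). Its neuron sum lay below that group's (77.3 to 91.1 CPM). PA1 of this embryo also had the highest mesenchyme and macrophage sums and the lowest Sox10 (0.261 CPM) of its group. Whether this embryo was at a later stage was not tested. Wildtype embryo 3 at E9.5 had in PA2 the highest Sox10 (21.7 CPM), Ngfr, Erbb3 and Ets1 of its group. That library also had the highest neuron (166 CPM), otic (33.9 CPM) and heart sums (449 CPM, the others 18.7 to 98.1). Its mesenchyme sum was the lowest (323 CPM), and its macrophage sum was not (1.02 CPM). In PA1 this embryo had the lowest otic (2.53 CPM) and mesenchyme (387 CPM) sums of its group. Whether it was at an earlier stage was not tested. The part of neighbouring ganglia, otic tissue and the amount of mesenchyme in the arch differences was not tested.

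**Figure D5:**
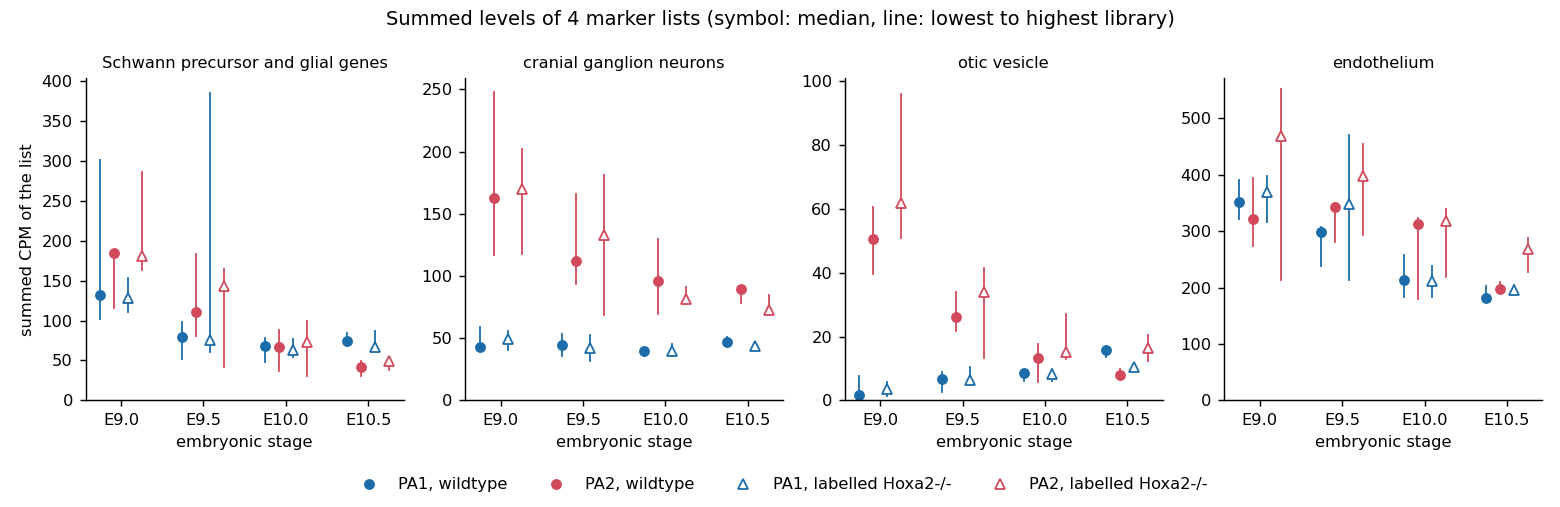
Summed CPM of 9 Schwann precursor and glial genes, 13 cranial ganglion neuron genes, 3 otic vesicle genes and 10 endothelial genes against stage; symbols give the median library of each group and lines run from its lowest to its highest library, for PA1 (blue) and PA2 (red), wildtype (filled circles) and labelled Hoxa2-/- (open triangles). The neuron sum lies higher in PA2 than in PA1 at each stage, and glial, otic (in PA2) and endothelial sums have their highest medians at E9.0 or E9.5.

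The Hoxa2-/- label was compared with wildtype in each arch and stage, which asks whether the homeobox gene of PA2 bears on these crest genes. No member passed in PA2 or in PA1 at any stage. In limma 0 of 20 member tests passed in PA2 (2 at an unadjusted p under 0.05, 0 in edgeR) and 0 of 20 in PA1 (0 at an unadjusted p under 0.05, 0 in edgeR). Over all tested genes 14.0%, 4.48%, 0.0814% and 10.3% passed in PA2 from E9.0 to E10.5, and 2.08%, 23.6%, 0.0% and 3.05% in PA1. At E10.0, the stage at which label and library division do not coincide, the PA2 differences (label minus wildtype) were -0.26 ± 0.49 for Sox10, -0.67 ± 0.27 for Ngfr, 0.08 ± 0.21 for Erbb3, -0.07 ± 0.18 for Ets1 and -0.40 ± 0.22 for Sox8. Ngfr there was 4.88, 11.6, 9.5, 4.86 and 2.58 CPM in wildtype PA2 and 4.35, 5.29, 1.81, 3.38 and 2.85 CPM under the label, with overlap (unadjusted p = 0.016, adjusted p = 0.57). The other difference at an unadjusted p under 0.05 was Sox8 in PA2 at E10.5, at 6.93, 6.74 and 3.44 CPM in wildtype and 3.74, 3.84 and 2.59 CPM under the label (-0.58 ± 0.29, adjusted p = 0.21). With the 2 compared groups fitted alone, Ets1 in PA2 at E10.5 passed as higher under the label, at 74.7, 75.5 and 77.0 CPM against 57.2, 59.1 and 60.8 CPM (0.35, adjusted p = 0.013), and in the fit over all groups it did not (adjusted p = 0.35).

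For the difference between the arches in the effect of the label, 0 of 20 member tests passed in limma (1 at an unadjusted p under 0.05, 0 in edgeR), while 0.0%, 0.0109%, 0.0163% and 0.038% of genes passed from E9.0 to E10.5. The estimates carried SEs of 0.25 to 0.89 on the log2 scale.

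Some genes of Schwann cell precursors and other glia fell over time. Of 12 listed genes 9 were in the table and 7 were tested, and 42 of their 84 tests between stages passed, each as a decrease, where 2.85% to 42.5% of all genes passed in a span. Their median log2 difference from E9.0 to E10.5 was -1.02 in wildtype PA1 and -1.73 in wildtype PA2, and that of all tested genes 0 and -0.01. Cdh19, a cadherin of Schwann cell precursors, fell in 10 of 12 spans, Sox2 in 8, Pou3f1 in 5, Pmp22 in 3 and Gjc3 in 0. Pmp22, a peripheral myelin protein gene, made up much of the summed level of the list, 365 of 386 CPM in the library with the highest sum. Cdh19 held 9.93, 12.5, 14.9, 13.7 and 19.6 CPM in wildtype PA1 at E9.0 and 3.07, 2.91, 5.67, 2.73 and 1.96 CPM at E9.5, a fall of 1.85 (adjusted p = 0.00025), and embryo 3, with the highest Sox10 at E9.5, had the highest Cdh19 too.

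Between the arches, 7 of 56 tests of these 7 glial genes passed as higher in PA2 and 2 as lower, a share within the 1.37% to 26.3% of all genes that passed per comparison. Cdh19 was higher in PA2 at E9.5 by 0.99 in wildtype (adjusted p = 0.02) and by 1.13 under the Hoxa2-/- label (adjusted p = 0.011). In wildtype PA2 at that stage it stood at 7.28, 8.19, 9.75 and 4.46 CPM, and 1 of these 4 lay within the PA1 range. Sox2 was higher in PA2 in 4 of 8 comparisons, and Fabp7, a fatty acid binding protein of early glia, was lower in PA2 at E9.0 by 1.02 and 1.36 on the log2 scale.

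The other neural crest genes, many of which the skeletal mesenchyme of the arches keeps, moved in both directions. Of 18 listed, 16 were tested, and between stages 37 of 192 tests passed as increases and 36 as decreases (2.85% to 42.5% of all genes passed in a span). Msx1, a homeobox gene of distal arch mesenchyme, rose in 9 of 12 spans and Sox5 in 7, Mycn fell in 8, and Sox9 rose in 5 and fell in 2. Between the arches 14 of 128 tests passed as higher in PA2 and 24 as lower (1.37% to 26.3% of all genes). Rxrg, a retinoid X receptor, was higher in PA2 in 8 of 8 comparisons, by 0.69 to 1.41, and Id2 in 4, while Msx1 was lower in 6 and Msx2 in 5. The list's median difference between the arches ran from -0.36 to -0.06.

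Partners of the 2 receptors were read from a list of 14, of which 13 were tested. Erbb2, which pairs with Erbb3 to bind neuregulins, fell in wildtype PA1 from E9.0 to E9.5 by 0.62 (adjusted p = 0.0045), and its change differed between the arches of wildtype embryos by 0.88 (adjusted p = 0.011). It was 107, 102, 99.4, 83.9 and 123 CPM in wildtype PA1 at E9.0 and 49.7, 91.8, 53.5, 65.3 and 79.9 CPM at E9.5. The lowest of the E9.5 values, 49.7 and 53.5 CPM, were those of embryos 1 and 3 of that uneven group. What leaving out a library does to these Erbb2 calls is not given here. Under the Hoxa2-/- label the same test of Erbb2 did not pass. Nrg3, a neuregulin, rose in 6 of 12 spans from group means at or below 0.125 CPM at E9.0 and E9.5, and Ntf3, which codes for neurotrophin 3, rose in 7.

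Among the partners of Ngfr, Ntrk2, the receptor for brain-derived neurotrophic factor, was higher in PA2 in 7 of 8 comparisons, by 0.64 to 1.61. Its means in wildtype from E9.0 on were 10.6, 6.81, 4.80 and 5.46 CPM in PA1 and 17.1, 15.6, 16.7 and 7.48 CPM in PA2. Elsewhere in the list for both receptors, Egfr was higher in PA2 in 4 comparisons, and Ntf3 was lower in 3 and higher in 1. Over the list, 26 of 104 tests passed as higher in PA2 and 7 as lower (1.37% to 26.3% of all genes), and the median differences in wildtype were 0.38, 0.49, 0.25 and 0.07 from E9.0 to E10.5.

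By Pearson r of the 16 group means, the genes most like Sox10 included Mef2c (0.961) and Ina (0.960). Those most like Erbb3 were Schip1 (0.974), Ltbp1 (0.969) and Tnfaip2 (0.956), and those most like Ets1 were Dtx4 (0.957), Slc45a4 (0.948) and Slc25a16 (0.943). Chrdl1 (0.950), Pax9 (0.939) and Proser2 (0.933) were the most like Ngfr, and Gcnt1 (0.873), Foxk1 (0.856) and Ado (0.855) the most like Sox8. Mef2c, a transcription factor of crest, muscle and endothelium, had means of 90.7, 44.7, 15.7 and 19.0 CPM in wildtype PA1 in order of stage and 122, 60.8, 18.8 and 16.7 CPM in wildtype PA2. Pax9, a gene of the pharyngeal pouches, had 2.72, 1.92, 1.18 and 2.30 CPM in wildtype PA1 and 12.5, 8.29, 7.42 and 7.94 CPM in wildtype PA2, which like Ngfr is an arch difference at each stage. Among the members themselves, Erbb3 went with Ets1 (r = 0.83) and Sox10 (r = 0.82), and Ngfr stood furthest from Sox8 (r = 0.09). These r describe 16 means that share arches, embryos and libraries.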

How the data were processed

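Whole arches were dissected by hand, and polyA RNA was amplified by PCR and sequenced, per the labels' protocols; no molecular identifiers are described, so floors cover counting error only. The submitters' processing notes name bcl2fastq 2.18, TopHat2 2.1.1, R 3.3.2 and mm10, and the counting program, its annotation and strand setting are not given in the sources used here, so reads of overlapping or antisense genes cannot be told apart. The deposited values are a signal, read counts relative to library size, scaled between libraries by the authors and called CPM here, with column totals of 926298 to 1051959. The steps of the low values gave whole reads for 100% of them (tolerance 0.05).

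The values were tested as log2(CPM + 1) with limma 3.58.1 in R 4.3.3, with 1 mean per group over the 68 libraries, for genes of at least 1 CPM in at least 3 libraries (18428), two-sided and adjusted by Benjamini-Hochberg over those genes, with a threshold of 0.05. The design had foreseen plain CPM. The tool edgeR 4.0.16 on the recovered reads, DESeq2 1.42.0 size factors, other pseudocounts and filters, the compared groups alone, a replicate block and leaving out each library were the alternatives. The series text takes both arches from a single embryo, so numbers pair PA1 with PA2 within a label and stage: deviations of paired libraries correlated with a median r of 0.35 over 33 pairs, 30 of them above 0.1. Wildtype and Hoxa2-/- labelled embryos share a number only.

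The members and the lists (other crest genes, glial genes, receptor partners and markers of other cells) were chosen with earlier results of these data known. Text names the members, the 3 genes most like each, and at most 4 genes of a list per comparison, those that passed in the most contrasts, except a few genes that are not reported here. Symbols, coordinates and sequences came from GENCODE M21.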

Additional observations from a re-analysis of the deposited data

Results flagged for a closer look

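In 8 of the 60 pairs of gene and group examined, the highest or lowest library stood far from the rest by Dixon's criterion. It flags about 1 in 20 by chance where values are normally distributed. The CPM values used need not be, and in 1 flagged group 4 of 5 libraries were at 0. The count of 8 can therefore not be set against that rate. For Sox10 these were wildtype PA1 embryo 3 at E9.5 (12.7 CPM, the others at most 2.85), wildtype PA1 embryo 5 at E10.0 (0.36 CPM, the others at 0) and wildtype PA2 embryo 2 at E10.0 (2.83 CPM). For Erbb3 the low library was PA2 of Hoxa2-/- labelled embryo 4 at E9.5 (27.4 CPM), which was also low in Sox10, and for Ngfr the high one was wildtype PA2 embryo 3 at E9.5 (7.11 CPM). Ets1 was low in wildtype PA1 embryo 4 at E9.0 (93.7 CPM). Sox8 was low in wildtype PA2 embryo 5 at E9.0 (2.81 CPM) and high in PA1 of Hoxa2-/- labelled embryo 1 at E10.0 (8.17 CPM).

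In wildtype embryos, the change from E9.0 to E9.5 differed between the arches for Erbb3 (0.93 on the log2 scale) and Ets1 (0.97), by the direct test of that difference.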

How the results depend on the processing

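Member tests passed between the arches of wildtype embryos went from 7 of 20 to 12 with the replicate block of embryos, and under the Hoxa2-/- label from 7 to 10. Over stages the block gave 32 of 60 against 30. For none of the comparisons was the share of all tested genes that passed with the block taken. For the label in PA2, fitting the compared groups alone gave 1 member call against 0. For the difference between the arches in the step from E9.0 to E9.5, a comparison added after the data were seen, 2 of 10 tests passed, against 6 with the replicate block, 1 with no filter, 1 with the compared groups alone and 1 without the 4 libraries high in yolk sac or red cell genes, and 0 to 4 when 1 library was left out. Leaving out 1 library gave 6 to 8 calls between arches in wildtype, 6 to 9 under the Hoxa2-/- label, 27 to 31 over stages and 0 for the label in either arch. Of the single-gene results under the alternatives, 3063 kept their side of the threshold, 60 came to pass and 87 ceased to, and no called difference changed sign; sign changes of differences that passed in neither setting were not counted. Foxd3 lies below what this depth can compare, and Sox10 is near the 3-read floor at E10.0 and in PA1 labelled Hoxa2-/- at E10.5.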
